A study of Mus musculus with 6 samples.

Results

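The genes described here are the nuclear genes of the mitochondrial respiratory chain and ATP synthase, chosen as the probe sets whose single platform gene symbol begins with Nduf, Uqcr, Atp5, Cox4, Cox5, Cox6, Cox7 or Cox8. They came to 86 of the 18193 genes on the array, with 170 of 34945 probe sets that carry 1 symbol, and a gene with several was read from the one whose mean over the 6 arrays was highest. By prefix, 44 genes belonged to complex I, 8 to complex III, 17 to complex IV and 17 to complex V. Of these, 80 were bright enough to be tested, namely 41, 8, 14 and 17 genes of the 4 complexes, and the 6 dimmest (Cox4i2, Cox7a1, Cox8b, Ndufa4l2, Ndufaf6 and Ndufb4) were not. A prefix is not proof of a subunit. The Ndufaf genes encode assembly factors, Ndufa4 is now placed in complex IV, and Cox7a2l is known as a factor that ties complexes into supercomplexes.

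The cells were regulatory T cells (Tregs), the CD4 T cells that hold immune responses in check, on 6 expression arrays in 3 groups of 2. In WT ATL1222, A2AR+/+FoxP3GFP cells were incubated for 18 h with 10 nM ATL1222, a selective A2AR agonist per the labels. A2AR is one of the receptors for adenosine. In KO vehicle, A2AR-/-FoxP3GFP cells, which lack that receptor, had the DMSO vehicle for the same time, and in WT vehicle A2AR+/+FoxP3GFP cells had the vehicle. All mice were C57Bl/6 aged 8 to 11 weeks and carried the FoxP3-GFP reporter, and cells were sorted from spleen and lymph nodes as CD4+CD25+FoxP3+. The labels call the replicates biological without saying that they came from separate animals, so the p-values below measure only the spread between these arrays. Receptor-deficient cells given ATL1222 were not analysed here.

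The respiratory chain passes electrons from NADH and succinate to oxygen through complexes I to IV and pumps protons across the inner mitochondrial membrane, and complex V, the ATP synthase, lets the protons flow back to make ATP. Most subunits are coded in the nucleus, and a small catalytic core is coded in mitochondrial DNA, of which no gene was matched here. Tregs are known for leaning on oxidative phosphorylation more than conventional effector T cells do. A2AR raises cyclic AMP, which in many tissues acts on nuclear genes through the factor CREB.

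Each deposited value is an array signal on a linear scale, already scaled by the authors to a common trimmed mean. Array medians were between 74.7 and 98.2. Of 8 markers of Tregs and CD4 T cells, 7 lay above the limit for dim genes, a signal of 71.2, whereas Foxp3 itself read 7.18 to 53.5 over the arrays and was below it. The summed signal of those 8 markers was 27072 to 31913 in WT ATL1222, 23480.4 to 25569 in KO vehicle and 23715 to 29459.5 in WT vehicle. B cell markers summed to 705 to 717 in WT ATL1222, 631 to 637 in KO vehicle and 596 to 636 in WT vehicle, with 3 of 4 measured above the dim limit. For CD8 T and NK cells the sums were 276 to 349.7 in WT ATL1222, 387 to 408 in KO vehicle and 332 to 392 in WT vehicle, with 2 of 3 above the limit. Of 5 myeloid markers 1 was above it and of 3 red cell and platelet markers 0. The part of these cell types in the results was not tested, and in bulk samples fewer cells of a type and less RNA per cell cannot be told apart.

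No respiratory chain gene passed the test in any comparison, whether WT ATL1222 (the agonist) or KO vehicle (the knockout) was set against WT vehicle or the agonist against the knockout. Differences were taken on log2(signal + 16) and tested with limma over all 10916 genes that were bright enough, at a Benjamini-Hochberg adjusted p under 0.05. In WT ATL1222 against WT vehicle 0 of the 80 tested members were called, where 0.211% of all genes were, and 1 member (Cox7c) had an unadjusted p under 0.05, where 4.99% of all genes did. In KO vehicle against WT vehicle 0 members were called, beside 0.0275% of all genes, and 1 (Ndufaf1) had an unadjusted p under 0.05, beside 3.88% of all genes. In WT ATL1222 against KO vehicle 0 were called, beside 0.98% of all genes, and 3 (Cox7c, Cox7a2l and Cox8c) had an unadjusted p under 0.05, beside 8.46%. With the replicate number as a block the called share of all genes was 0.715%, 0.0824% and 2.35% in the order of these comparisons, and 0 members were called in each. The block gave 3, 3 and 9 members with an unadjusted p under 0.05, beside 7.97%, 6.97% and 12.8% of all genes. An exact two-sided permutation test of 2 arrays against 2 cannot give a p below 0.333, and limma's p-values rest on a spread estimated with information from all genes.

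The fold changes of the members lay close around 0. Their median log2 fold change was 0.00 in WT ATL1222 against WT vehicle, with a range of -0.55 to 0.42, and 42 of 80 were positive, beside 48.6% of all genes. It was -0.04 in KO vehicle against WT vehicle, with a range of -0.75 to 0.47 and 31 of 80 positive, beside 50.8% of all genes. In WT ATL1222 against KO vehicle the median was 0.03 over a range of -0.76 to 1.17, with 48 of 80 positive, beside 46.5% of all genes. The same medians over all genes were -0.01, 0.00 and -0.02. Single arrays set the sign of these small medians. The first was -0.12 without WT vehicle replicate 2 and 0.11 without WT vehicle replicate 1. The second was 0.086 without KO vehicle replicate 2 and 0.063 without WT vehicle replicate 1. With KO vehicle replicate 1 as the only knockout array the third was -0.07, and with replicate 2 as the only one it was 0.14.

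The arrays put bounds on what most members could have done. For 58 of 80 members in WT ATL1222 against WT vehicle the whole 95% interval of the log2 fold change lay within 0.5 on either side of 0, a 1.41-fold difference, and for 76 it lay within 1. The counts were 52 and 76 in KO vehicle against WT vehicle, and 50 and 74 in WT ATL1222 against KO vehicle. Of all genes tested, 24.5%, 25.1% and 21.5% had intervals within 0.5 in the 3 comparisons, and 74.0%, 74.7% and 71.4% within 1. These values are from the fit without the replicate block. With the block 64, 65 and 61 members had intervals within 0.5 in the same order. The median standard error of a member's log2 fold change was 0.151, beside 0.231 over all genes. Most members were bright, with a mean signal over 1000 for 64 of the 80. An interval within these bounds limits a difference in the mean and does not show that a gene was equal between groups.

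**Figure D1:**
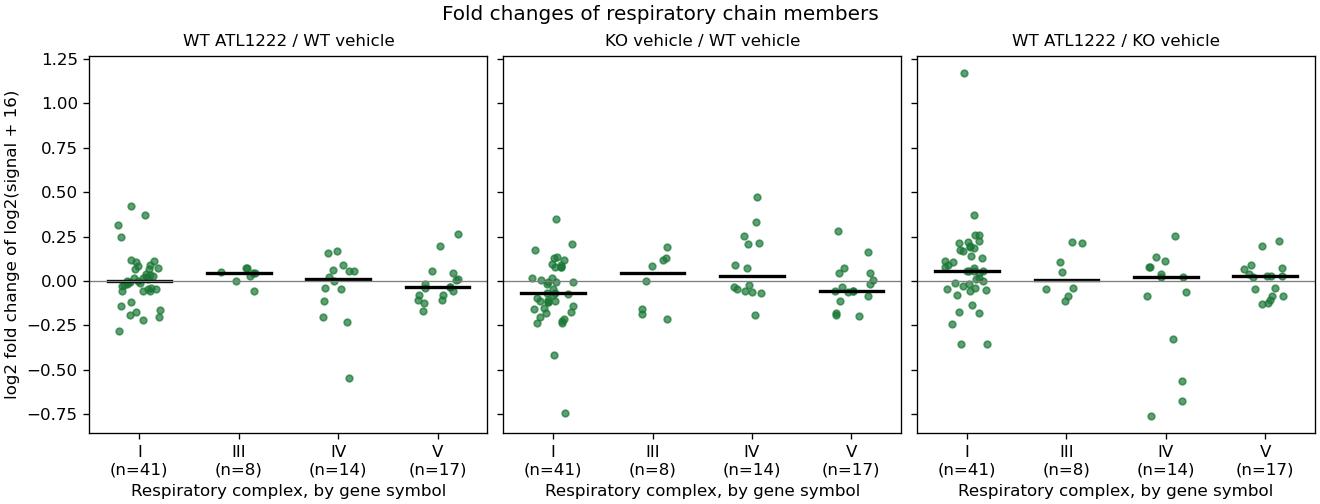
Log2 fold change of log2(signal + 16) for each tested member, 1 point a gene, by complex (x axis) in WT ATL1222 over WT vehicle, KO vehicle over WT vehicle and WT ATL1222 over KO vehicle. The black bar is the median of a complex. The points of all 4 complexes sit around 0, and those farthest from it are Cox7c at -0.55, Ndufb1 at -0.75 and Ndufb1 at 1.17 in the 3 panels.

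Groups of 2 arrays often fail to overlap, so the number of members that did not overlap was read against all genes. In WT ATL1222 against WT vehicle 6 members lay wholly higher and 10 wholly lower, which is 16 of 80, beside 14.5% of all genes higher and 16.3% lower. The 6 higher were Ndufs1, Ndufs3, Ndufb1, Ndufaf7, Atp5a1 and Atp5g1. The 10 lower were Ndufa13, Ndufb2, Ndufb5, Ndufb6, Ndufb10, Ndufaf1, Ndufaf5, Ndufaf8, Cox7c and Atp5e. In KO vehicle against WT vehicle 7 were wholly higher and 9 wholly lower, beside 15.8% and 13.7% of all genes. In WT ATL1222 against KO vehicle the counts were 13 higher and 9 lower, beside 17.3% and 20.9%.

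In both vehicle groups the members differed more, in their median, between the 2 arrays of the group than between groups, and in the same direction. The median of replicate 1 minus replicate 2 over the members was 0.04 (log2) in WT ATL1222, 0.19 in KO vehicle and 0.21 in WT vehicle. Replicate 1 was the higher array for 50 of 80 members in WT ATL1222, 67 in KO vehicle and 70 in WT vehicle. All complexes took part in the vehicle groups: in WT vehicle replicate 1 was higher for all 8 genes of complex III and all 17 of complex V, for 35 of 41 of complex I and for 10 of 14 of complex IV. The same medians were 0.08, 0.13 and 0.17 in WT ATL1222, KO vehicle and WT vehicle over the brightest 1 in 5 of all genes tested, which holds 64 of the 80 members, and 0.01, 0.06 and 0.06 over all genes. The spiked-in poly-A control RNAs were also brighter on replicate 1, by 1.46 to 1.67-fold in WT ATL1222, 1.85 to 2.00-fold in KO vehicle and 1.69 to 2.09-fold in WT vehicle for Lys, Phe and Thr, and for Dap by 1.15, 1.46 and 1.29-fold in the same groups. The part of labelling or of any other step in this was not tested. Within replicate 1 the members' median was -0.08 in WT ATL1222 against WT vehicle and within replicate 2 it was 0.08. It was -0.04 within either replicate number in KO vehicle against WT vehicle, and -0.05 and 0.14 in WT ATL1222 against KO vehicle.

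**Figure D2:**
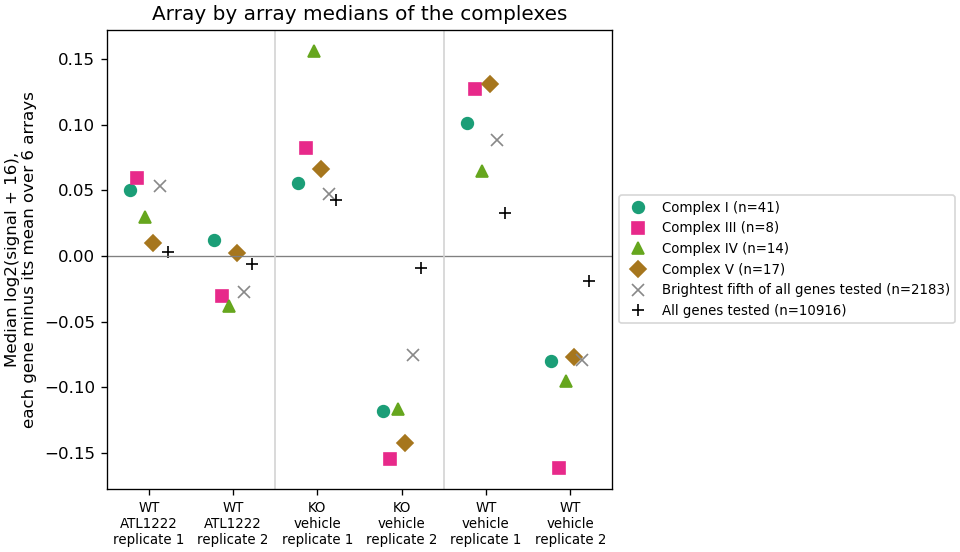
Median over the genes of each complex of log2(signal + 16) minus the gene's own mean over 6 arrays (y axis), for each array (x axis). Grey crosses are the brightest 1 in 5 of all genes tested and black plus signs all genes tested. In both vehicle groups every complex sits above 0 on replicate 1 and below 0 on replicate 2, and on the WT ATL1222 arrays the complexes lie nearer to 0.

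Since the receptor acts through cyclic AMP, the promoters of the members were read for the CREB site and for sites of NRF1 and of ETS factors, 2 kinds of regulator known for respiratory chain genes. RefSeq promoters (GRCm38.p6, the 250 bases before each annotated start, both strands searched) matched 71 of the 86 members. The full cyclic AMP response element TGACGTCA lay in 3 of the 71, or 4.23%, beside 2.20% of protein-coding genes and 1.77% of all genes in that table. Its first bases TGACG, which lie within the full element too, were found in 24 members, or 33.8%, beside 22.6% and 19.8%. The NRF1 core, whose letters are the first run of capitals in the Cox6a1 window, was in 4 (Atp5g2, Atp5k, Cox6a1 and Ndufaf4), or 5.63%, beside 1.21% and 0.877%, and the ETS core CCGGAAG in 13, or 18.3%, beside 10.2% and 7.83%. Median GC content was 57.4% in the members' windows and 55.6% in those of protein-coding genes. A match of letters is a description of the window and not a site shown to be used. The 3 windows with the full element are printed because they are where a direct effect of cyclic AMP could be looked for, and that of Cox6a1, the widely expressed subunit 6A of complex IV, because it holds both the NRF1 and the ETS core. Capitals mark the motif, read 5′ to 3′ on the strand of the gene, and in Cox6a1 the second run of capitals is the ETS core on the opposite strand.
Ndufa10 (chr1:92473759-92474008, minus strand): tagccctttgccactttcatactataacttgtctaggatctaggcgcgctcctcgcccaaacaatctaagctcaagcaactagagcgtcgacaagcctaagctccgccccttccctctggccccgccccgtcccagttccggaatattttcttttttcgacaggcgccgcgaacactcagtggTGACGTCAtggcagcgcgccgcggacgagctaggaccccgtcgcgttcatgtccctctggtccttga
Ndufb2 (chr6:39592315-39592564, plus strand): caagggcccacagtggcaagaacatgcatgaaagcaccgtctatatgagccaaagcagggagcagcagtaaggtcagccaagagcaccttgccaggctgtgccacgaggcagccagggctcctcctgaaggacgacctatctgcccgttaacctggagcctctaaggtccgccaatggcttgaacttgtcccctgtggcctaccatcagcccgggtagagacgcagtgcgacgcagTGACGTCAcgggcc
Uqcrfs1 (chr13:30545317-30545566, minus strand): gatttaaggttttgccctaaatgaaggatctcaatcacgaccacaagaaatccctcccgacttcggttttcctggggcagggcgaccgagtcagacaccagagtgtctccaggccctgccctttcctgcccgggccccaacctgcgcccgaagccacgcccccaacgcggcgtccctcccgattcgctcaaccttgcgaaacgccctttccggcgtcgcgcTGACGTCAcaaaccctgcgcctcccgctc
Cox6a1 (chr5:115348959-115349208, minus strand): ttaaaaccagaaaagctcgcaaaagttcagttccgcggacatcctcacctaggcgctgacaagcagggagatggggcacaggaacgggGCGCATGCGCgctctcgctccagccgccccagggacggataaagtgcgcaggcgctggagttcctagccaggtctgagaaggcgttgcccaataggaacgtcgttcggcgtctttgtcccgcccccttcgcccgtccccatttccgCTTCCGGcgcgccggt
The element begins 67 bases before the annotated start in Ndufa10, 14 in Ndufb2 and 29 in Uqcrfs1. The log2 fold change in WT ATL1222 against WT vehicle was -0.06 ± 0.17 (SE) for Ndufa10, -0.22 ± 0.18 for Ndufb2 and 0.05 ± 0.19 for Uqcrfs1, and none passed the test. Ndufa10 signals were 1848 and 1631 in WT ATL1222, 2061 and 1432 in KO vehicle and 1873 and 1745 in WT vehicle, and the groups overlapped. Ndufb2 signals were 699.7 and 645 in WT ATL1222, 1009.6 and 737 in KO vehicle and 779 and 794 in WT vehicle, and both WT ATL1222 arrays were below the other 4. Its further probe sets did not share this. They gave 0.02 ± 0.19 and 0.32 ± 0.45 in WT ATL1222 against WT vehicle, and on both these groups overlapped. Uqcrfs1, whose signals are given with complex III, overlapped between all groups. Over the 24 members with TGACG the median was -0.00 and the range -0.28 to 0.42. The NRF1 core's 4 genes had a median of -0.04.

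Complex I takes electrons from NADH through an arm in the mitochondrial matrix and pumps protons through an arm in the membrane. Its 41 tested genes had a median log2 fold change of 0.00 in WT ATL1222 against WT vehicle, -0.07 in KO vehicle against WT vehicle and 0.06 in WT ATL1222 against KO vehicle, with 21, 14 and 26 of 41 positive. Grouped by prefix, the 3 Ndufv genes had medians of 0.04, -0.02 and 0.06 in these comparisons and the 6 Ndufs genes 0.09, 0.06 and 0.13. In the accessory series, the 13 tested Ndufa genes had -0.01, -0.07 and 0.06, and the 10 tested Ndufb genes -0.04, -0.11 and 0.06. Of those 10 Ndufb genes 2 were positive in KO vehicle against WT vehicle. The 7 tested assembly factors had -0.00, -0.05 and 0.06.

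Ndufs1 encodes the largest iron-sulfur subunit of the matrix arm and came nearest to a difference among the higher members of the agonist comparison. Its signals were 629.7 and 715 in WT ATL1222, 605 and 561 in KO vehicle and 536 and 494 in WT vehicle. Both WT ATL1222 arrays lay above all others, and the 3 groups did not overlap. Against WT vehicle the log2 fold change in WT ATL1222 was 0.37 ± 0.18, with a 95% interval of -0.01 to 0.75 and an unadjusted limma p of 0.0541 (adjusted p 0.998). Ndufv1, the flavoprotein that binds NADH and the first electron acceptor, differed little. It had signals of 1141 and 1177 in WT ATL1222, 1163 and 1067 in KO vehicle and 1181 and 1077 in WT vehicle, with log2 fold changes of 0.04 ± 0.15 and -0.02 ± 0.15 against WT vehicle. The ranges of all 3 groups overlapped. Ndufs4, an accessory subunit of the matrix arm whose loss in mice gives a fatal brain disease, read 1158 and 1256 in WT ATL1222, 1409 and 1314 in KO vehicle and 1295 and 1071 in WT vehicle. The KO vehicle arrays were the highest, at 0.21 ± 0.16 against WT vehicle. Its further probe sets, all dimmer, went the other way in the knockout, at -0.12 ± 0.28, -0.32 ± 0.36 and -0.16 ± 0.44.

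In the membrane arm, Ndufb8, whose protein is widely used as a mark of assembled complex I, had signals of 1904 and 1758 in WT ATL1222, 1629 and 1569.8 in KO vehicle and 1998 and 1637 in WT vehicle, so the KO vehicle arrays were the lowest by a narrow margin. Its log2 fold changes against WT vehicle were 0.02 ± 0.15 with the agonist and -0.18 ± 0.15 in the knockout. Ndufb6 read 1819 and 1365 in WT ATL1222, 1895 and 1684 in KO vehicle and 1999 and 1849.9 in WT vehicle, or -0.28 ± 0.16 with the agonist, where replicate 2 was the low array. A second probe set of Ndufb6 gave 0.07 ± 0.14, so the direction was not shared. Ndufb9 read 3232 and 3270.0 in WT ATL1222, 2852 and 2213 in KO vehicle and 3307 and 2258 in WT vehicle, at 0.25 ± 0.18 with the agonist. Its second probe set gave -0.12 ± 0.16. In both vehicle groups replicate 1 of Ndufb9 lay far above replicate 2. Ndufb5 and Ndufb2 had log2 fold changes of -0.21 ± 0.14 and 0.13 ± 0.18 in the knockout and -0.04 ± 0.14 and -0.22 ± 0.18 with the agonist. Ndufb5 read 2107 and 2131 in WT ATL1222, 2012 and 1754 in KO vehicle and 2208 and 2151 in WT vehicle, and both KO vehicle arrays were below the other 4. A second probe set of Ndufb5, of similar brightness, gave -0.06 ± 0.17 in the knockout, with overlapping groups. The further probe sets of Ndufb2 are given with its promoter.

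Ndufb1 had the largest fold changes of any member in both comparisons with the knockout, and they rested on 1 array. It read 133 and 105 in WT ATL1222, 98.7 and 15.2 in KO vehicle and 90.0 and 78.9 in WT vehicle. KO vehicle replicate 2 alone was far below the rest and below the dim limit. The log2 fold change was -0.75 ± 0.57 in KO vehicle against WT vehicle (95% interval -1.98 to 0.49) and 1.17 ± 0.57 in WT ATL1222 against KO vehicle, with an unadjusted limma p of 0.0614. Left to KO vehicle replicate 1 alone these were 0.19 and 0.23, and left to KO vehicle replicate 2 alone they were -1.69 and 2.11.

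Of the assembly factors, Ndufaf1, which helps to build the membrane arm, had the smallest p of any member in KO vehicle against WT vehicle without the replicate block. With the block its unadjusted limma p was 0.0205, and that of Atp5a1, of complex V, was smaller at 0.0154. Its signals were 499 and 512 in WT ATL1222, 439 and 429.8 in KO vehicle and 612 and 559 in WT vehicle. The 2 KO vehicle arrays were the lowest of the 6 and the 2 WT vehicle arrays the highest, and no groups overlapped. In the knockout its log2 fold change was -0.42 ± 0.18 (95% interval -0.80 to -0.03), with an unadjusted limma p of 0.0365 and an adjusted p of 1.00. Ndufaf1 has 1 probe set, so no second one bears on it. Ndufaf2, a chaperone that leaves the complex late in assembly, was at 0.35 ± 0.25 in the knockout, with 178 and 246 in WT ATL1222, 287 and 259 in KO vehicle and 209.9 and 210.4 in WT vehicle. Ndufaf7, a methyltransferase that modifies a core subunit, was at 0.32 ± 0.23 with the agonist. Ndufa13, an accessory subunit also known to bind STAT3, was at -0.18 ± 0.14 with the agonist and -0.23 ± 0.14 in the knockout, and on all 4 of those arrays it was below both WT vehicle arrays, at 4746 and 5573 in WT ATL1222, 5305 and 4595 in KO vehicle and 5643 and 5985 in WT vehicle. None of these passed the test.

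Complex III moves electrons from ubiquinol to cytochrome c. All 8 genes with its prefix Uqcr were tested, and other genes of the complex are not among them. Their median log2 fold changes were 0.05, 0.04 and 0.01 with the agonist, in the knockout and between agonist and knockout. With the agonist all 8 lay between -0.05 and 0.07, and 7 were positive. The median of the 8 was -0.05 within replicate 1 and 0.10 within replicate 2. For each of the 8 genes the interval in that comparison lay within 0.5 on either side of 0. Uqcrc1, a core protein, read 2469 and 2387 in WT ATL1222, 3271 and 2116 in KO vehicle and 2680.2 and 1984 in WT vehicle. Both WT ATL1222 arrays lay inside the range of the vehicle groups, whose own replicates were wide apart. Uqcrfs1, the iron-sulfur protein that hands electrons on, read 1265 and 935 in WT ATL1222, 1207 and 1035 in KO vehicle and 1214 and 913 in WT vehicle. Uqcrb, a small subunit by the ubiquinone site, read 10214 and 8790.0 in WT ATL1222, 8899.8 and 7456 in KO vehicle and 10307 and 8349 in WT vehicle. Replicate 1 was the higher array of each group for both genes. In the knockout the largest difference of these 8 genes was -0.21 ± 0.15 for Uqcr11, the smallest subunit of complex III.

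**Figure D3:**
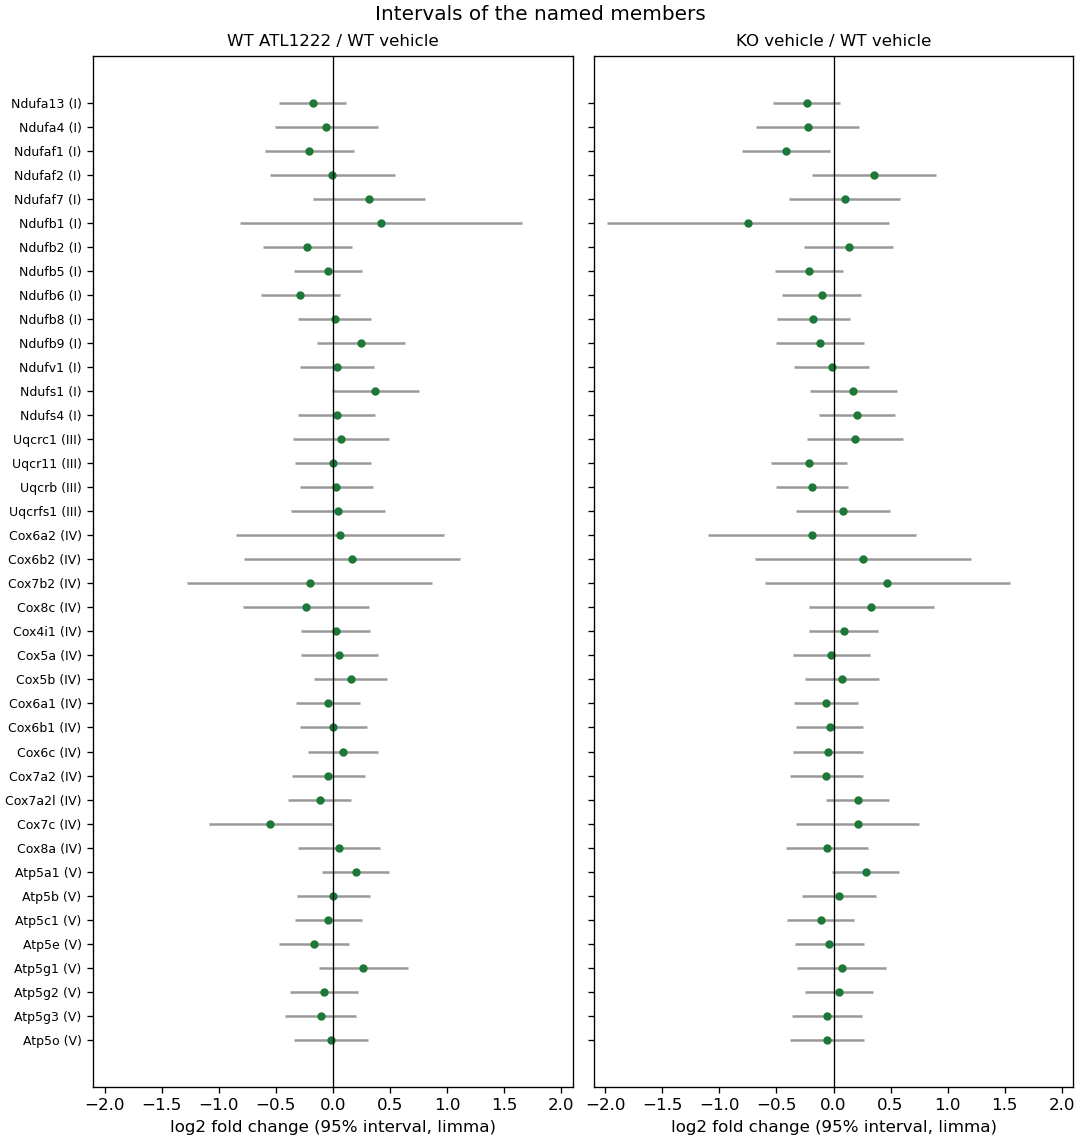
Log2 fold change of log2(signal + 16) with its 95% limma interval (x axis) for the named members that were tested (y axis, complex in brackets), in WT ATL1222 over WT vehicle and KO vehicle over WT vehicle. Intervals that leave out 0 are those of Cox7c on the left and Ndufaf1 on the right, before adjustment over all genes, and the widest belong to dim genes such as Ndufb1.

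Complex IV, cytochrome c oxidase, passes electrons to oxygen, and its nuclear subunits surround a core coded in mitochondrial DNA. The 10 widely expressed genes had median log2 fold changes of 0.01, -0.03 and 0.03 with the agonist, in the knockout and between agonist and knockout. Cox4i1, the largest nuclear subunit, read 7512 and 8375 in WT ATL1222, 9063 and 7586 in KO vehicle and 8511 and 7149 in WT vehicle, at 0.02 ± 0.14 with the agonist and 0.09 ± 0.14 in the knockout. Cox5a, which faces the matrix, read 5646 and 4804 in WT ATL1222, 5244 and 4638 in KO vehicle and 5776 and 4333 in WT vehicle. The groups of both genes overlapped. Cox5b, Cox6c and Cox8a were at 0.16, 0.09 and 0.06 with the agonist and 0.08, -0.05 and -0.06 in the knockout.

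Cox7c, a small membrane subunit, had the smallest p of any member with the agonist without the replicate block. With the block its unadjusted limma p was 0.0365, and that of Ndufb6 was smaller at 0.0265. Its signals were 168 and 165 in WT ATL1222, 270.2 and 318 in KO vehicle and 219 and 287 in WT vehicle. Both WT ATL1222 arrays lay below all 4 vehicle arrays, and the vehicle groups overlapped. On the log2 scale it differed by -0.55 ± 0.25 against WT vehicle (95% interval -1.09 to -0.01, unadjusted limma p 0.0463, adjusted p 0.982) and -0.76 ± 0.25 against KO vehicle (95% interval -1.30 to -0.22, unadjusted p 0.00911, adjusted p 0.282). Its other probe set, at 94.9 and 68.7 in WT ATL1222, 84.4 and 65.6 in KO vehicle and 86.2 and 64.8 in WT vehicle, gave 0.09 ± 0.43 and 0.10 ± 0.43. The used probe set is of a kind that can bind RNA of several genes, as its name ending shows, so what it measures is uncertain.

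Cox7a2l was the member with the smallest adjusted p over all the settings tried. It read 5890.2 and 6680.4 in WT ATL1222, 7833 and 7894 in KO vehicle and 6511 and 7086 in WT vehicle. Both KO vehicle arrays lay above the other 4, and the wild-type groups overlapped. It differed by -0.33 ± 0.13 in WT ATL1222 against KO vehicle (unadjusted limma p 0.0234, adjusted p 0.432), 0.21 ± 0.13 in KO vehicle against WT vehicle and -0.11 ± 0.13 in WT ATL1222 against WT vehicle. Its 2 further probe sets gave -0.37 ± 0.15 and -0.42 ± 0.12 in WT ATL1222 against KO vehicle, and 0.24 ± 0.15 and 0.34 ± 0.12 in KO vehicle against WT vehicle. All 3 probe sets were thus higher in KO vehicle than in either wild-type group, as readings of the same RNA samples. With the replicate block the adjusted limma p in WT ATL1222 against KO vehicle was 0.0968, still above the threshold.

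**Figure D4:**
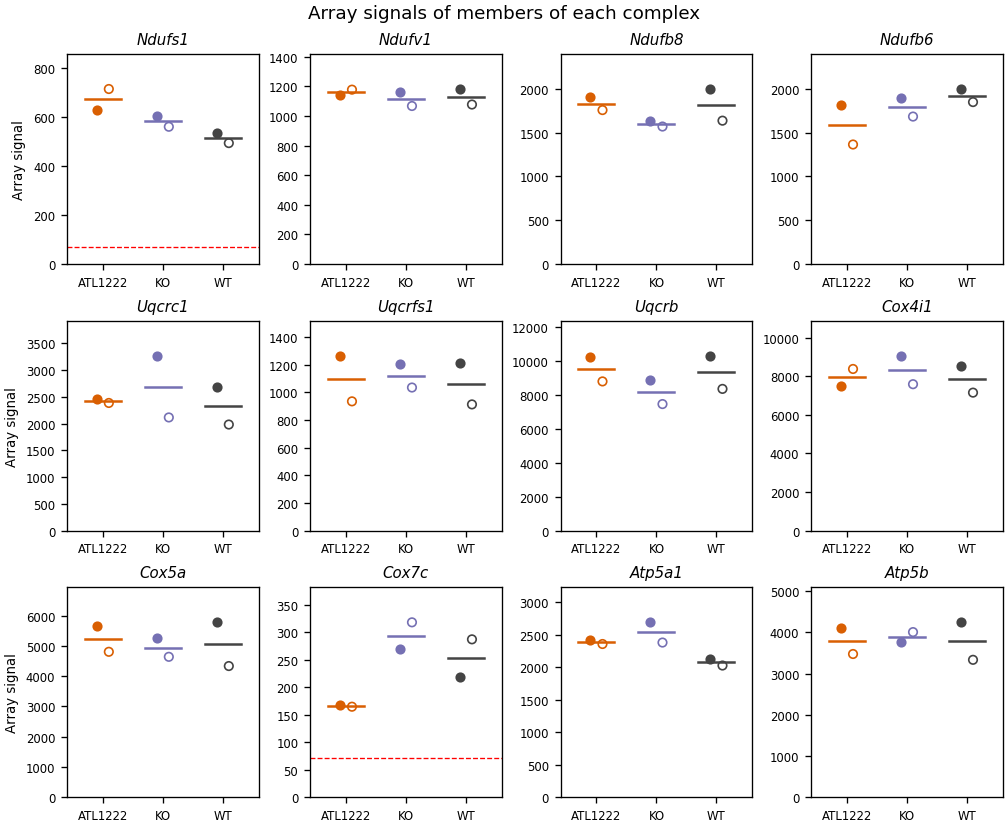
Array signal (y axis, linear, from 0) of 12 members of complexes I, III, IV and V in WT ATL1222, KO vehicle and WT vehicle (x axis). Filled circles are replicate 1, open circles replicate 2, bars the mean of 2 arrays, and the red dashed line, where in range, the dim limit of 71.2. Ndufs1, Ndufb6, Cox7c and Atp5a1 show WT ATL1222 arrays apart from WT vehicle, while the groups of Ndufv1, Cox4i1 and Atp5b overlap.

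Complex V carries its catalytic sites in the F1 head, turned by a ring of c subunits in the membrane. Its 17 genes had median log2 fold changes of -0.03, -0.06 and 0.03 with the agonist, in the knockout and between agonist and knockout. With the agonist they ranged from -0.17 to 0.27. The 5 F1 genes had medians of 0.01, -0.04 and -0.04 in the same comparisons, and the 4 genes of the peripheral stalk, which holds the head still, -0.07, -0.07 and 0.03. Atp5b, the catalytic beta subunit, read 4105 and 3477 in WT ATL1222, 3768 and 4009 in KO vehicle and 4245 and 3336 in WT vehicle, and the groups overlapped, at 0.01 ± 0.15 with the agonist and 0.05 ± 0.15 in the knockout. Atp5a1, the alpha subunit that stands beside it, read 2425 and 2360.2 in WT ATL1222, 2694 and 2383 in KO vehicle and 2135 and 2029 in WT vehicle. Both WT vehicle arrays were the lowest of the 6. The difference was 0.20 ± 0.14 with the agonist and 0.28 ± 0.14 in the knockout, with an unadjusted limma p of 0.0582 in the knockout and an adjusted p of 1.00. A second probe set of Atp5a1 gave 0.04 ± 0.14 and 0.04 ± 0.14, with overlapping groups. Atp5c1, the shaft that turns in the head, was at -0.04 ± 0.14 and -0.11 ± 0.14, Atp5o of the stalk at -0.02 ± 0.15 and -0.06 ± 0.15, and Atp5e of the shaft at -0.17 ± 0.14 and -0.04 ± 0.14.

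Several subunits exist in isoforms known from other tissues, and most of those tissue forms were below or near the dim limit here. Ndufa4l2, known for its induction by low oxygen, was below the dim limit on all 6 arrays, at 66.7 and 14.1 in WT ATL1222, 61.2 and 27.5 in KO vehicle and 4.45 and 29.0 in WT vehicle. Cox7a1 and Cox8b, the heart and muscle forms of their subunits, were also below it on all arrays. Cox7a1 read 15.7 and 11.9 in WT ATL1222, 29.5 and 30.1 in KO vehicle and 45.9 and 32.5 in WT vehicle, and it was not tested. Cox4i2, the lung form, read 86.7 and 70.9 in WT ATL1222, 35.7 and 97.3 in KO vehicle and 8.57 and 50.3 in WT vehicle, and its mean over all arrays was below the limit. Cox6a2 of muscle and Cox6b2 and Cox7b2 of testis were tested but lay near the limit, with at least 1 array of each below it. Their intervals were wide: for Cox7b2 the log2 fold change in KO vehicle against WT vehicle was 0.47 ± 0.50 (95% interval -0.60 to 1.54). Cox8c, also a testis form, read 214 and 326 in WT ATL1222, 481 and 330.0 in KO vehicle and 330.0 and 298 in WT vehicle. It was at -0.56 ± 0.26 in WT ATL1222 against KO vehicle, with an unadjusted limma p of 0.0451 and an adjusted p of 0.567. The 4 tested tissue forms had a median of -0.07 with the agonist and 0.29 in the knockout against WT vehicle, and the knockout median was 0.48 within replicate 1 and 0.03 within replicate 2.

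The widely expressed partners of these forms that are among the members were above the limit on every array. Cox7b, the partner of Cox7b2, is not among the members and was not tested. Cox6a1, Cox6b1 and Cox7a2 were at -0.05, 0.00 and -0.04 with the agonist and -0.07, -0.03 and -0.06 in the knockout. Ndufa4 read 3477 and 2827 in WT ATL1222, 3470.3 and 2236 in KO vehicle and 3909.5 and 2721 in WT vehicle, where replicate 1 was the higher array of every group. The ring of complex V is made from 3 genes that encode the same mature subunit c. Atp5g1 read 774 and 805 in WT ATL1222, 686 and 689 in KO vehicle and 759 and 563 in WT vehicle. Both WT ATL1222 arrays were above the rest, at 0.27 ± 0.18 against WT vehicle, an interval of -0.13 to 0.66. Atp5g2 and Atp5g3 were at -0.08 ± 0.14 and -0.11 ± 0.14, so the 3 ring genes did not share a direction.

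**Figure D5:**
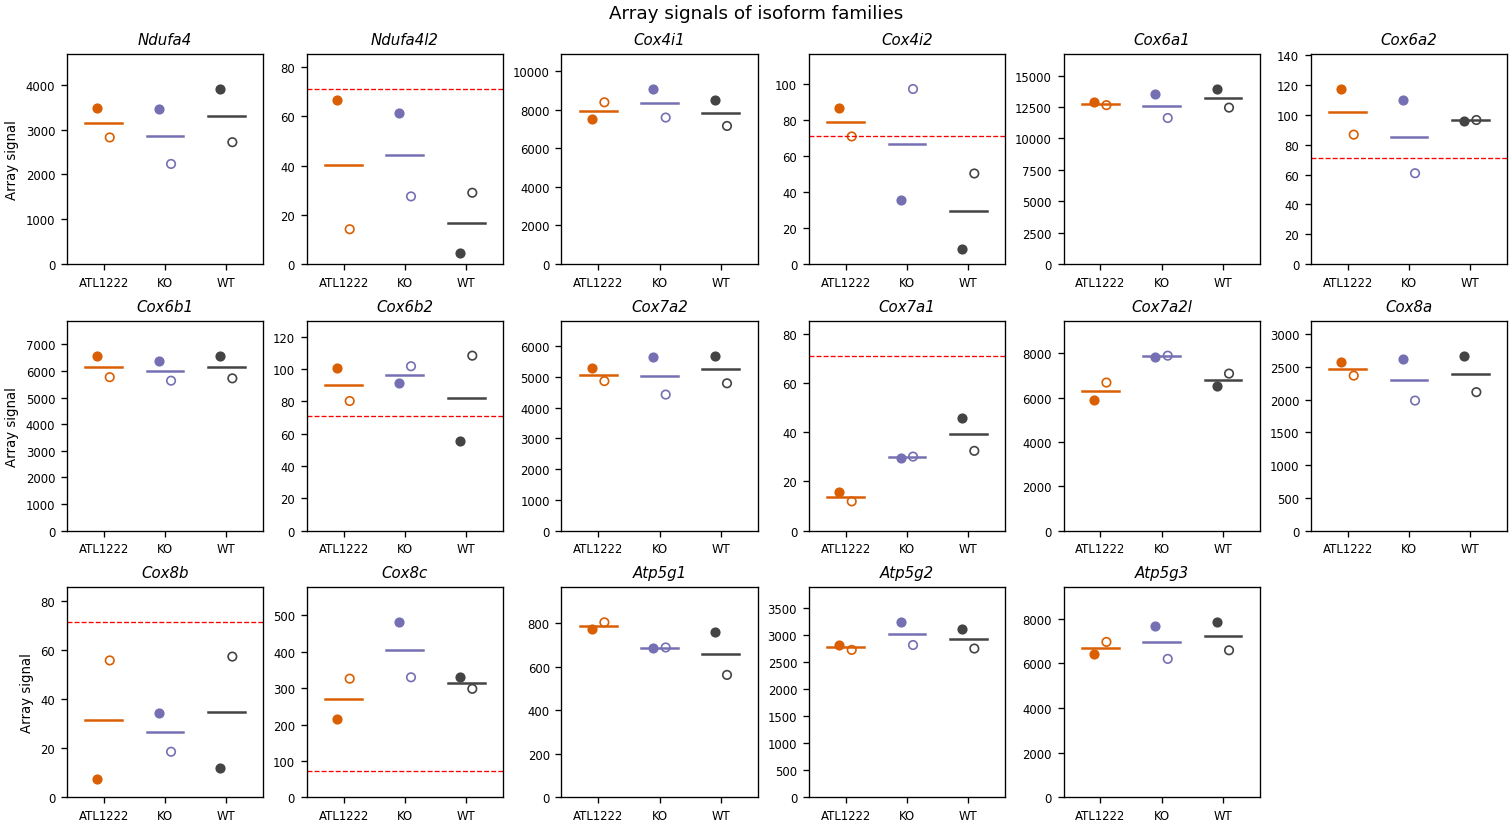
Array signal (y axis, linear, from 0, with its own scale for each gene) of members of isoform families in WT ATL1222, KO vehicle and WT vehicle (x axis). Filled circles are replicate 1, open circles replicate 2, bars the mean of 2 arrays, and the red dashed line the dim limit of 71.2. Ndufa4l2, Cox7a1 and Cox8b are below the line on all 6 arrays, and Cox7a2l shows both KO vehicle arrays above the rest.

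Most members have more than 1 probe set, which gives a second reading of the same RNA. Of the 86 members 48 had several, up to 6, and 16 were represented by a probe set of the kind that can bind several genes. Tested one by one with limma over all probe sets, 0 of the 152 bright enough probe sets of members were called in any comparison, beside 0.0858%, 0.0% and 0.382% of all 20967 probe sets tested. An unadjusted limma p under 0.05 was found for 0, 3 and 4 of them with the agonist, in the knockout and in WT ATL1222 against KO vehicle. The 4 were 3 probe sets of Cox7a2l and 1 of Cox7c. The share of all probe sets with such a p was not counted. Of 72 further probe sets, 2, 5 and 6 differed by more than 0.5 (log2) from the one used. With the agonist these 2 belonged to Cox7c and Ndufb2. In the knockout the 5 belonged to Atp5a1, Ndufab1, Ndufs4, Ndufs8 and Ndufv2, of which Ndufab1, Ndufs8 and Ndufv2 are named here after their values were seen. Ndufb4 was dim in its own probe set, at 41.7 and 63.4 in WT ATL1222, 57.8 and 38.8 in KO vehicle and 65.1 and 14.7 in WT vehicle, while a probe set shared by Ndufb4 and its copies Ndufb4b and Ndufb4c read 2413 and 2232 in WT ATL1222, 2307 and 2098 in KO vehicle and 2599.9 and 2314 in WT vehicle. Ndufa11 and Ndufs6 are named only in such shared probe sets. They were not counted.

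The genes around the respiratory chain were read in the same fit, from 7 other lists. No gene of complex II, which feeds electrons from succinate, was called in any comparison, and its 4 genes had medians of -0.01 and 0.03 in WT ATL1222 and KO vehicle against WT vehicle. Sdha, its flavoprotein, had the smallest p in the knockout at 0.21 ± 0.14, and Sdhb, its iron-sulfur protein, with the agonist at 0.14 ± 0.17. None was called among 8 tested electron carriers and donors (medians 0.01 and -0.00), 34 other assembly factors (0.03 and 0.02), 14 genes of mitochondrial transcription and biogenesis (-0.04 and -0.02) and 27 genes of import and carriers (-0.03 and -0.00). Of 76 mitochondrial ribosome genes (medians -0.05 and -0.04), 0 were called against WT vehicle. In WT ATL1222 against KO vehicle 1 of the 76 was called, beside 0.98% of all genes. That gene was Mrps6, of the small mitochondrial subunit, and it was higher. It read 1662 and 1554 in WT ATL1222, 1032 and 792 in KO vehicle and 1192 and 1008 in WT vehicle, and the WT ATL1222 arrays were above all others. Its log2 fold change was 0.82 ± 0.17 (adjusted limma p 0.0360) against KO vehicle and 0.55 ± 0.17 (adjusted p 0.576) against WT vehicle. The used probe set is of the kind that can bind RNA of several genes. With such probe sets left out the log2 fold change against KO vehicle was 0.99. The call on Mrps6 held in 12 of 17 other settings, and its adjusted p reached 0.395 without the variance trend, 0.317 without KO vehicle replicate 2, 0.334 without WT ATL1222 replicate 1 and 0.138 without WT ATL1222 replicate 2. The 42 tested cytosolic ribosomal protein genes had 5 positive with the agonist and 34 in the knockout, beside 48.6% and 50.8% of all genes, at medians of -0.07 and 0.06, with 0 called in either. The knockout median was 0.16 within replicate 1 and -0.04 within replicate 2, so its sign rested on 1 pair of arrays. With the agonist it was -0.13 and -0.04.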

How the data were processed

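RNA of 6 sorted Treg samples was read on Affymetrix-type expression arrays, from 1 µg of labelled RNA per the labels' protocols. The deposited values are intensities on a linear scale, processed by the authors with GCOS per the submitters' processing notes (version and algorithm not given in the sources used here). The mean after leaving out the highest and lowest 2% of probe sets was the same on all arrays, so no further scaling was applied.

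Of 45101 probe sets, 64 were controls, 34945 had 1 symbol in the platform annotation, 932 had more than 1, and for 9160 that annotation had no entry. A GRCm38.p6 gene table, which 34741 probe sets matched, gave current symbols. Each of 18193 genes kept its probe set with the highest mean, and the dimmest 40% (mean signal under 71.2) were left out, which left 10916 genes. Values were taken as log2(signal + 16), which understates the change of dim genes. limma 3.58.1 in R 4.3.3 fitted all 6 arrays together with a variance trend, and p-values were adjusted by Benjamini-Hochberg over all genes at a threshold of 0.05. Values after ± are standard errors of a log2 fold change with 2 arrays in each group, a number that limits their precision. The fit was tested on simulated data. Promoters came from RefSeq.

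The members, the other lists and the tests were chosen with earlier results of these data known. Named members are those with the 5 smallest p in each direction against WT vehicle, key subunits and isoform families. Genes named for a promoter motif or as a small count were named after their values were seen. Changes of each gene between replicates 1 and 2 correlated between groups at Pearson r of 0.150 (WT ATL1222 and KO vehicle), 0.234 (WT ATL1222 and WT vehicle) and 0.229 (KO vehicle and WT vehicle) over 10916 genes, which do not count as independent replicates. The labels do not say what a replicate number stands for, and on these correlations the number was taken to pair the arrays. That pairing entered only the replicate block. The main fit had no block, so its p-values, standard errors and intervals leave the pairing out. The alternatives were the replicate block, other pseudocounts, dim limits and normalizations, averaged probe sets, no cross-hybridizing probe sets, a fit without the variance trend, only the 4 arrays compared, and each array left out. The receptor gene itself is not reported here.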

Additional observations from a re-analysis of the deposited data

How the results depend on the processing

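No member was called under any of the 17 alternatives, and the smallest adjusted limma p of a member over all of them was 0.0968, for Cox7a2l between agonist and knockout with the replicate block. The members' median log2 fold change kept within -0.02 to 0.00 (WT ATL1222 against WT vehicle), -0.04 to -0.01 (KO vehicle against WT vehicle) and -0.00 to 0.03 (WT ATL1222 against KO vehicle) under the alternatives that kept all arrays of a comparison. Leaving out 1 array gave ranges of -0.12 to 0.11, -0.14 to 0.086 and -0.07 to 0.14, so the sign of each median rests on single arrays. The count of all genes called, against which the members were read, moved more. With the agonist it was 23 and became 78 with the replicate block, 14 with no filter on dim genes, 35 with the dimmest 60% left out, 35 with cyclic loess, 40 with only the 4 arrays compared, 3 with probe sets averaged and 0 without the variance trend, where 571 genes had an unadjusted limma p under 0.05. In the knockout it was 3 and became 9 with the replicate block, 0 with probe sets averaged and 0 without the trend, where 416 and 474 genes had an unadjusted limma p under 0.05. Between agonist and knockout it was 107 and became 257 with the replicate block, 70 with no filter, 44 with probe sets averaged and 3 without the trend. Leaving out 1 array gave 5 to 39 genes with the agonist (5 without WT ATL1222 replicate 1 or without WT vehicle replicate 2, 39 without either KO vehicle array), 3 to 7 in the knockout (5 without KO vehicle replicate 2, 7 without WT vehicle replicate 2) and 39 to 132 between them (59 without KO vehicle replicate 2, 39 without WT ATL1222 replicate 1). Over all alternatives the medians of single complexes stayed within the spread between replicates 192 times and left it 12 times, and the values of named members 1911 and 105 times. A fold change cannot move under the replicate block, without the variance trend or with only the 4 arrays compared. Nor can it move when an array of the group not compared is left out. Such cases are among those that stayed, so these counts overstate how stable the fold changes were. The cause of these shifts was not tested. A group left with 1 array was assumed to vary like the others. Dim members such as Ndufb1 and Cox7b2 have intervals too wide to bound a change.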
